A study of Mus musculus with 4 samples.

Results

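The 10 genes described here encode proteins by which cells of the myeloid lineage are recognised: the signalling adaptors Tyrobp and Fcer1g, the receptors Sirpa, Clec12a and Igsf6, the receptor partner Ly86, the pore-forming protein Mpeg1, and the transcription factors Spi1, Cebpa and Cebpe. They are 10 of 19938 genes read from the arrays. The list was drawn up by name, with the differences between the genotypes already known, and members were thus chosen by their log2 array values as well as by their function. Each gene was read from the brightest probe set (mean over the 4 arrays) paired with its symbol alone. All 10 genes had 1 such probe set, so that step made no choice. Their values below are therefore a description, and the number of them that passed the test supports nothing by itself.

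RNA came from naive CD8 T cells, the cytotoxic lineage of T cells before antigen, which had been sorted from spleens of BALB/c mice. Klf13 knockout (KO) mice gave 2 samples and wild-type (WT) mice gave 2, each on its own 1-colour Affymetrix array. The series is about how Klf13, a zinc-finger factor of the SP/KLF family, bears on memory-like CD8 T cells. The sources used here do not give the ages of the mice, the deleted part of Klf13, or whether the samples of a genotype came from separate mice. The p-values therefore reflect only how far these samples varied, which could be technical.

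Klf13 itself read 5.46 and 5.43 in the KO arrays, against 7.01 and 7.15 in the WT arrays (KO minus WT -1.63 on the log2 scale, SE 0.10, limma adjusted p = 3.75e-05). The deposited values are log2 values per probe set, so a difference of 1 is a doubling. Of the markers that define the sorted cells, the CD8 chain Cd8a read 11.1 ± 0.02 in KO and 11.2 ± 0.09 in WT (SD, n = 2 each). The T cell receptor component Cd3e read 9.53 ± 0.05 in KO and 9.47 ± 0.02 in WT. The 15 measured naive CD8 T cell markers, these included, had a median difference of -0.14, and 0 of them passed limma. Both KO arrays lay below both WT arrays for 8 of the 15 and above for 3 (23.2% and 24.4% of all genes). Over all genes, 448 of 19938 (2.25%) passed limma at an adjusted p under 0.05, 238 of them higher in KO (1.19%) and 210 lower (1.05%). Of the calls, 53.1% were thus higher in KO; this share was 21.8% of 1088 calls once arrays were centred on their medians. The count was 264 without KO replicate 1, 1536 without KO replicate 2, 277 without WT replicate 1 and 39 when all 35556 probe sets of the table were tested.

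Myeloid cells sense their surroundings through receptors that have no signalling motif of their own and pair with small membrane adaptors. Tyrobp (DAP12) and Fcer1g (the common Fc receptor gamma chain) are such adaptors. Their cytoplasmic tyrosine motifs (ITAMs) recruit the kinase Syk in myeloid cells. Inhibitory receptors such as Sirpa and Clec12a carry the opposing motif (ITIM), which recruits phosphatases. Spi1 (PU.1), Cebpa and Cebpe act in the nucleus, where they turn on the genes of granulocytes and monocytes. Several of these genes are also active outside the myeloid lineage: Tyrobp and Fcer1g in NK cells, and Spi1 and Ly86 in B cells.

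In the KO arrays all 10 genes were higher than in the WT arrays, with no overlap between the genotypes for any of them. Among all genes, 24.4% had both KO arrays above both WT arrays. The differences ran between 0.34 and 1.10 on the log2 scale, with a median of 0.60, while the median over all genes was 0.02 and the range from the 5th to the 95th percentile of all genes was -0.29 to 0.28. Of the 10 genes, 6 passed limma (Ly86, Mpeg1, Clec12a, Sirpa, Tyrobp and Igsf6), all of them higher in KO, against 1.19% of all genes called in that direction. The other 4 (Fcer1g, Spi1, Cebpa and Cebpe) did not pass. At an unadjusted p under 0.05 all 10 were higher in KO, a threshold that 7.85% of all genes passed in that direction and 16.6% in either. With all 35556 probe sets of the table tested singly, a setting added after the data were seen, 0 of the 10 passed limma, with adjusted p between 0.0756 for Ly86 and 0.353 for Fcer1g. The values carry no detection calls, so no gene can be called absent. For orientation, 1027 olfactory receptor genes, which blood cells are not known for, had a median level of 2.60 and a 95th percentile of 3.75, and probe sets read below that level have uncertain folds. In bulk RNA of this kind, more cells of a type and more RNA per cell cannot be told apart.

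**Figure D1:**
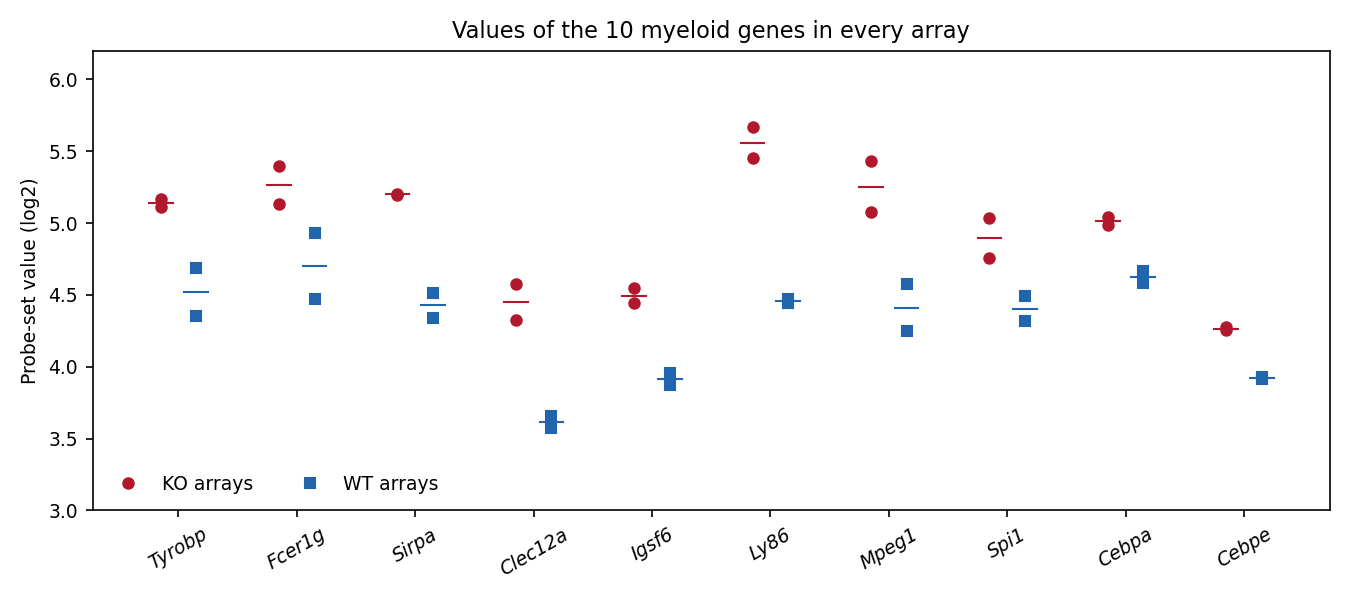
Log2 probe-set values of the 10 genes in each of the 4 arrays, KO arrays as circles on the left of each pair and WT arrays as squares on the right, with short lines at the group means (n = 2 each). For each gene both KO points lie above both WT points, most closely for Fcer1g, where the lower KO value is 5.13 and the higher WT value is 4.93; heights of different genes are not comparable, since probe sets bind differently.

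Tyrobp read 5.17 and 5.11 in the KO arrays, against 4.35 and 4.69 in the WT arrays. The KO arrays lay close together and the WT arrays apart, with the smallest gap between genotypes at 0.42. The difference was 0.62 (SE 0.12, limma adjusted p = 0.0271), or 1.54-fold higher in KO. The call was lost without KO replicate 1 (adjusted p = 0.144), without KO replicate 2 (0.0501) and without WT replicate 1 (0.238), where the difference was 0.45. It was also lost after a further quantile normalization of the arrays (0.0753).

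Fcer1g, the other adaptor, read 5.13 and 5.40 in the KO arrays, against 4.93 and 4.47 in the WT arrays. WT replicate 1 came within 0.20 of KO replicate 1, and the WT arrays differed from each other by 0.46, the widest gap within a genotype among the 10 genes. The difference of 0.56 (SE 0.15) did not pass limma (adjusted p = 0.0975), though it passed in 4 of the 12 alternatives described at the end. It moved with the WT arrays, at 0.79 without WT replicate 1 and 0.33 without WT replicate 2. Without KO replicate 1 it was 0.70, and without KO replicate 2 it was 0.43.

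Of the receptor genes and the receptor partner Ly86, all 4 passed, with differences between 0.58 and 1.10. Ly86 encodes MD-1, the secreted partner that holds the Toll-like protein Cd180 at the cell surface. It had the largest difference of the 10 genes and stood 23rd from the top among all 19938. Its values were 5.45 and 5.67 in the KO arrays, against 4.44 and 4.47 in the WT arrays, 2.15-fold higher in KO (difference 1.10, SE 0.10, limma adjusted p = 4.98e-04). Even the closest pair of KO and WT arrays lay 0.98 apart.

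Clec12a is an inhibitory C-type lectin receptor of granulocytes, monocytes and dendritic cells. It read 4.57 and 4.32 in the KO arrays, against 3.57 and 3.66 in the WT arrays (1.78-fold higher in KO, difference 0.83, SE 0.11, limma adjusted p = 0.00365). Both WT values, but neither KO value, were under the olfactory 95th percentile of 3.75, so the size of this fold is uncertain. Sirpa, the inhibitory receptor for the ubiquitous surface protein Cd47, read 5.20 and 5.20 in the KO arrays, against 4.34 and 4.52 in the WT arrays. The difference was 0.77 (SE 0.10, limma adjusted p = 0.00352), or 1.71-fold. The KO arrays differed by 0.01 here, the least of any gene of the list. Sirpa has close relatives in the mouse, the Sirpb1 genes, which are not analysed here and whose transcripts its probe set may also bind.

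Igsf6 encodes an immunoglobulin-type receptor of dendritic and other myeloid cells. Its values were 4.55 and 4.44 in the KO arrays, against 3.87 and 3.96 in the WT arrays (1.49-fold higher in KO, difference 0.58, SE 0.10, limma adjusted p = 0.0131). The call was lost without KO replicate 1 (adjusted p = 0.0564) and without WT replicate 1 (0.0753). In the RefSeq annotation Igsf6 overlaps the methyltransferase gene Mettl9, which read 8.72 and 8.85 in the KO arrays, against 8.60 and 8.60 in the WT arrays. Mettl9 did not pass (0.19, limma adjusted p = 0.369).

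RefSeq promoter sequences of assembly GRCm38.p6 were at hand for 6 of the 10 genes (Fcer1g, Clec12a, Igsf6, Ly86, Mpeg1 and Cebpa), and not for Tyrobp, Sirpa, Spi1 and Cebpe. Printed are the 250 bases before the start of 3 genes, 5′ to 3′ on the strand of the gene. These are the receptor or receptor partner genes that both passed the test and had a sequence. Capitals mark letters that match, on either strand, GAGGAA (the core that PU.1 prefers), TTGCNNAA (a C/EBP type of site) or CCNCNCCC (a box of the kind bound by SP/KLF factors).
Clec12a, chr6:129349994-129350243, plus strand: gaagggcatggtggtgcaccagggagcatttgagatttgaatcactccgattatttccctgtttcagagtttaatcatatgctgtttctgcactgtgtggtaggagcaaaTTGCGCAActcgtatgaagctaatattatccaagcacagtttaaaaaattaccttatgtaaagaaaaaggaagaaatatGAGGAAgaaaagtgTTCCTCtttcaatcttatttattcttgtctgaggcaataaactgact
Igsf6, chr7:121074531-121074780, minus strand: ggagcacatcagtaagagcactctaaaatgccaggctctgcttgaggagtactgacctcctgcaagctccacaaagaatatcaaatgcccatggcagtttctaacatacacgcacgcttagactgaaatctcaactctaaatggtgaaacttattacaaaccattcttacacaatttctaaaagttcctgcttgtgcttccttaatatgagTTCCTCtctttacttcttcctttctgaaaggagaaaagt
Ly86, chr13:37345095-37345344, plus strand: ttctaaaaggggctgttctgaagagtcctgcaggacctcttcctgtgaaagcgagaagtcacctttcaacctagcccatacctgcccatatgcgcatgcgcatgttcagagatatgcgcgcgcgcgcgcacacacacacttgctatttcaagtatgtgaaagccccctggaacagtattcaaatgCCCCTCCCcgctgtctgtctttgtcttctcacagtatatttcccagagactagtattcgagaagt

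Clec12a held GAGGAA at 61 to 56 bases before the start and its reverse complement at 47 to 42 bases, with the palindrome TTGCGCAA at 140 to 133 bases. Igsf6 held the reverse complement of GAGGAA at 39 to 34 bases. In Ly86 the only match was CCCCTCCC, 65 to 58 bases before the start. Over the 6 promoters, GAGGAA was in 2, TTGCNNAA in 1 and CCNCNCCC in 2. In all 32851 promoter windows of the same length those letters were in 23.3%, 9.56% and 45.9%. No matches of different motifs overlapped in the printed windows, and a match shows letters only, not a site that a factor occupies.

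Mpeg1 (perforin-2) is a pore-forming protein of macrophages and other phagocytes that acts on engulfed bacteria. It read 5.08 and 5.43 in the KO arrays, against 4.57 and 4.25 in the WT arrays. Both genotypes were spread, by 0.36 between the KO arrays and 0.32 between the WT arrays, and the closest pair across genotypes lay 0.50 apart. The difference was 0.84 (SE 0.14, limma adjusted p = 0.0141), or 1.79-fold higher in KO. After a further quantile normalization it was 0.77 and did not pass (adjusted p = 0.0629).

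The 3 transcription factor genes had the smallest differences of the list, between 0.34 and 0.49, and 0 of 3 passed limma, while all 3 had an unadjusted p under 0.05, as did 16.6% of all genes. Whether they differ from the receptor genes in this was not tested. Spi1 encodes PU.1, the master factor of the myeloid and B lineages, and read 4.76 and 5.04 in the KO arrays, against 4.49 and 4.32 in the WT arrays. Its difference was 0.49 (SE 0.12, limma adjusted p = 0.0624), which passed without WT replicate 1 (0.58, adjusted p = 0.0389). It did not pass without WT replicate 2 (0.41, 0.297), KO replicate 1 (0.63, 0.0525) or KO replicate 2 (0.35, 0.0794).

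Cebpa, which commits progenitors to granulocytes and monocytes, read 4.98 and 5.04 in the KO arrays, against 4.67 and 4.58 in the WT arrays (difference 0.39, SE 0.09, limma adjusted p = 0.0677). Cebpe drives the later steps of granulocyte maturation. It read 4.27 and 4.26 in the KO arrays, against 3.92 and 3.93 in the WT arrays (difference 0.34, SE 0.09, limma adjusted p = 0.0936). Cebpe had the closest WT replicates of the 10 genes, 0.01 apart, and the smallest difference, 1.27-fold.

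**Figure D2:**
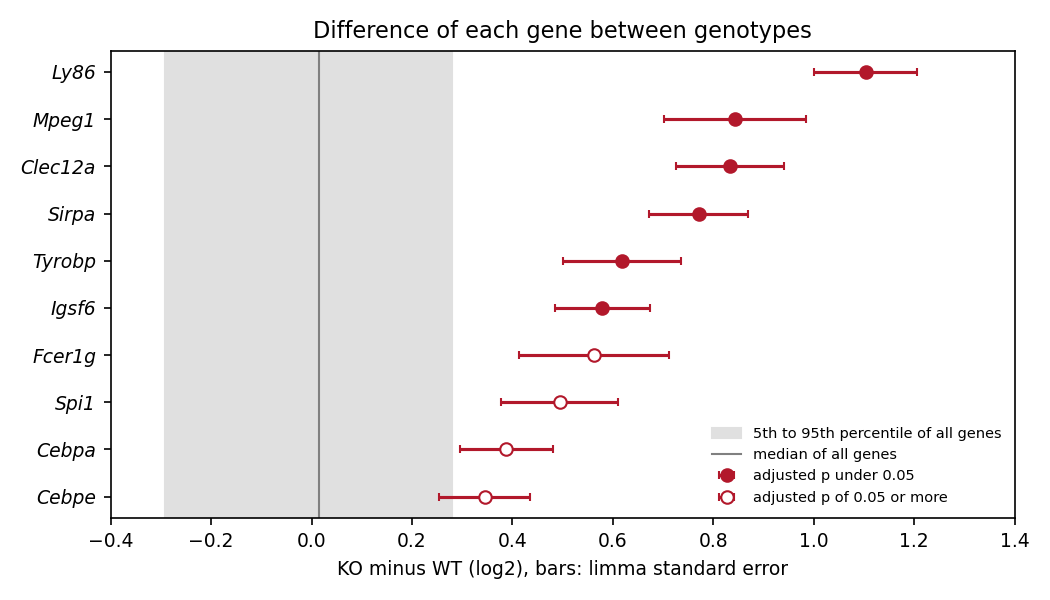
KO minus WT differences of the 10 genes (log2) with limma standard errors, from Ly86 at 1.10 down to Cebpe at 0.34. Filled points passed at an adjusted p under 0.05, open points did not, and the grey band spans the 5th to the 95th percentile of all 19938 genes (-0.29 to 0.28), with a line at their median of 0.02.

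Within a genotype the genes did not follow one array. KO replicate 1 was above KO replicate 2 for 5 genes (Tyrobp, Sirpa, Clec12a, Igsf6 and Cebpe), and the reverse held for the other 5. WT replicate 1 was above WT replicate 2 for 4 genes (Fcer1g, Mpeg1, Spi1 and Cebpa), which were all among the 5 that were higher in KO replicate 2. The mean level of the 10 probe sets was 4.92 and 4.99 in the KO arrays, against 4.32 and 4.28 in the WT arrays.

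Of the 10 genes, 3 lie on chromosome 7, which also carries Klf13: Tyrobp, Igsf6 and Cebpa. The measured genes next to each of the 10 on its chromosome, 20 in all, had a median difference of 0.06. Against 2.25% of all genes called in either direction, 1 of the 20 passed. That one was F13a1, the neighbour of Ly86 on chromosome 13, which encodes a transglutaminase chain of monocytes and platelets. F13a1 read 6.65 and 6.86 in the KO arrays, against 5.13 and 5.02 in the WT arrays (difference 1.68, limma adjusted p = 3.75e-05). Hcst, the neighbour of Tyrobp, encodes DAP10, another adaptor of activating receptors. It read 5.61 and 5.56 in the KO arrays, against 5.84 and 5.87 in the WT arrays (-0.27, limma adjusted p = 0.182).

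The receptors that signal through Tyrobp or Fcer1g had 22 measured members of 27 listed. Of the 22, 1 rose (4.55%, against 1.19% of all genes), 0 fell and 21 did not pass. The member that rose was Clec5a, a Tyrobp-paired lectin receptor of monocytes and neutrophils, at 3.45 and 3.42 in the KO arrays, against 2.94 and 2.93 in the WT arrays (0.50, limma adjusted p = 0.0218). All 4 values lay under the olfactory 95th percentile of 3.75. The NK receptor Ncr1 (0.41) and the NKG2D gene Klrk1 (-0.26) did not pass. The list median was 0.12, against 0.02 over all genes. The mean level of the 22 was 3.42 and 3.38 in KO against 3.32 and 3.28 in WT. These means lay under the olfactory 95th percentile of 3.75, so folds of this list are uncertain. Of 28 measured genes of ITAM signalling, 2 rose (7.14%, against 1.19% of all genes) and 0 fell, while 26 did not pass, with a median of 0.07. Plcg2, the phospholipase downstream of Syk in myeloid and B cells, rose by 0.82 (limma adjusted p = 0.00145), with 5.94 and 5.90 in the KO arrays, against 5.08 and 5.11 in the WT arrays. The signalling protein gene Vav3 rose by 0.58 (limma adjusted p = 0.0153), and the B cell receptor chain Cd79b (0.51) did not pass.

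Among 21 inhibitory receptors and their phosphatases, 0 passed limma in either direction and 2 (against 16.6% of all genes) had an unadjusted p under 0.05, with a median of 0.04. The Fc receptor Fcgr2b (0.32), the adhesion receptor Pecam1 (-0.35) and the phosphatase Ptpn6 (-0.18) had the smallest p. Of 20 measured genes of Toll-like sensing, 1 rose (5%, against 1.19% of all genes) and 0 fell, while 19 did not pass (median 0.14). Unc93b1, the chaperone of nucleic acid-sensing Toll-like receptors, rose by 0.67 (limma adjusted p = 0.0194), at 5.66 and 5.87 in KO against 4.96 and 5.23 in WT. The signalling inhibitor Irak3 (0.37) did not pass, nor did Cd180, the partner of Ly86 (0.31, limma adjusted p = 0.135).

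Among 10 other pore-forming proteins, the perforin gene Prf1 of cytotoxic lymphocytes fell, averaging 7.17 ± 0.23 in KO and 8.07 ± 0.09 in WT (SD, n = 2 each, difference -0.89, limma adjusted p = 0.00434). The other 9 did not pass, Gsdme (0.35) and Gsdmd (-0.17) of the gasdermins among them, and the median was 0.01. Of all genes, 1.05% were called lower in KO.

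Of 32 measured regulators of myeloid development, 2 rose (6.25%, against 1.19% of all genes), 0 fell and 30 did not pass (median 0.08). Gfi1, a repressor needed for neutrophil development, rose by 0.51 (limma adjusted p = 0.0286), at 6.35 and 6.46 in KO against 5.96 and 5.81 in WT. Meis1, a homeobox factor of blood stem and progenitor cells, rose by 0.62 (limma adjusted p = 0.0334), and Irf8, a factor of monocytes and dendritic cells, did not pass (0.47, limma adjusted p = 0.0741).

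Textbook targets of PU.1 and C/EBP factors had 31 measured members, and 7 of them rose (22.6%, against 1.19% of all genes), while 0 fell and 24 did not pass, with a median of 0.20. The list was drawn up with earlier results of these data known, so this share is a description only. The granule protein genes Mpo, Elane, Ctsg and Prtn3 differed by 1.97, 1.60, 1.70 and 1.71. Lysozyme Lyz2 rose by 1.15 (limma adjusted p = 0.00145), with 5.18 and 5.58 in the KO arrays, against 4.21 and 4.24 in the WT arrays. Csf1r, the receptor of the macrophage growth factor, rose by 0.58 (limma adjusted p = 0.0110). The seventh was the cytokine receptor chain Csf2ra (0.51), named after its value was seen. Mpo, Elane, Ctsg and Prtn3 are also among the neutrophil precursor markers below, and Lyz2 and Csf1r among the monocyte and macrophage markers. The calls of these lists are thus partly the same genes.

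**Figure D3:**
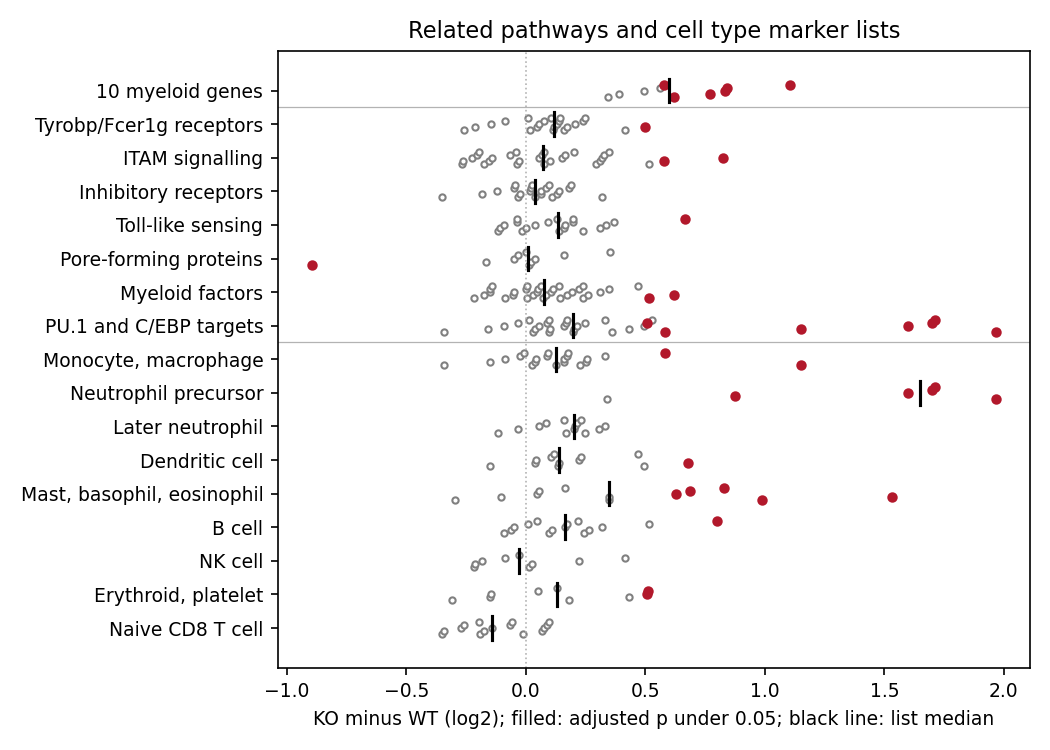
KO minus WT differences (log2) of the 10 myeloid genes, of 7 pathway lists and of 9 cell type marker lists, 1 point per gene, without the 10 genes in any list. Filled points passed at an adjusted p under 0.05 and black lines mark list medians: 0.60 for the 10 genes, 0.20 for PU.1 and C/EBP targets, 1.65 for neutrophil precursor markers and -0.14 for naive CD8 T cell markers.

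Markers of other blood cells were read on the same arrays, in lists drawn up with earlier results of these data known. Their shares of calls are thus a description only. The neutrophil precursor list and the list of mast cells, basophils and eosinophils had the most calls, 5 each. Of 6 neutrophil precursor markers, 5 rose (83.3%, against 1.19% of all genes) and 1 did not pass. Their mean level was 6.54 and 6.72 in the KO arrays, against 5.13 and 5.39 in the WT arrays. Mpo, the myeloperoxidase of primary granules, read 8.79 and 8.88 in the KO arrays, against 6.77 and 6.96 in the WT arrays (limma adjusted p = 1.87e-05), and Ms4a3, a membrane protein of granulocyte and monocyte progenitors, differed by 0.88 (limma adjusted p = 0.0153). Of 13 markers of later neutrophils, 0 passed limma and 3 had an unadjusted p under 0.05 (16.6% of all genes did), namely Ngp (0.33), Mmp9 (0.25) and S100a9 (0.23). Both KO arrays lay above both WT arrays for 9 of the 13 and below for 0 (24.4% and 23.2% of all genes). The mean level of the 13 was 3.38 and 3.29 in KO against 3.17 and 3.19 in WT. These means lay under the olfactory 95th percentile of 3.75, as did Ngp and S100a9 in all 4 arrays, so their folds are uncertain.

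Of 12 markers of mast cells, basophils and eosinophils, 5 rose (41.7%, against 1.19% of all genes) and 7 did not pass. The mean level of the 12 was 5.04 and 5.13 in KO against 4.64 and 4.67 in WT. Those that rose were the eosinophil granule genes Prg2 (1.53) and Epx (0.99), the basophil proteases Prss34 (0.83) and Mcpt8 (0.63), and the histamine-forming enzyme gene Hdc (0.69). Epx read under 3.75 in both WT arrays, at 3.40 and 3.60. The 7 that did not pass include the mast cell genes Cpa3 (-0.30), Mcpt4 (-0.10) and Tpsb2 (0.16) and the IgE receptor chains Fcer1a (0.04) and Ms4a2 (0.35). The others of these 7 were Gata2 (0.35) and Cd200r3 (0.06). Monocyte and macrophage markers rose in 2 of 21 (9.52%, against 1.19% of all genes), namely Lyz2 and Csf1r. The mean level of the 21 was 4.14 and 4.15 in KO against 3.99 and 3.98 in WT. Among those that did not pass were Ccr2 (0.33), C1qb (0.23), Cd68 (-0.34), Slc40a1 (-0.15), C1qa (-0.03) and C1qc (-0.01). The median of the list was 0.12. Both KO arrays lay above both WT arrays for 10 of the 21 and below for 2 (24.4% and 23.2% of all genes). Of 12 dendritic cell markers, 1 rose (8.33%), the growth factor receptor gene Flt3 (0.68, limma adjusted p = 0.00467). The integrin Itgax (0.49) and Irf8 did not pass. The mean level of that list was 4.39 and 4.41 in KO against 4.17 and 4.21 in WT. Both KO arrays lay above both WT arrays for 7 of its 12 genes and below for 0 (24.4% and 23.2% of all genes).

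Of 15 B cell markers, 1 rose (6.67%, against 1.19% of all genes), namely Ighm by 0.80 (limma adjusted p = 0.00168). Cd79b and Fcrla (0.26) did not pass. Both KO arrays lay above both WT arrays for 7 of the 15 and below for 0 (24.4% and 23.2% of all genes). The mean level of the 15 was 4.72 and 4.80 in KO against 4.56 and 4.60 in WT. Of 9 NK cell markers 0 passed limma and 3 had an unadjusted p under 0.05, against 16.6% of all genes, namely Ncr1, Klrb1c (0.22) and Klrd1 (-0.21). The mean level of the 9 was 3.57 and 3.68 in KO against 3.65 and 3.60 in WT, under the olfactory 95th percentile of 3.75. Klrb1c read under the olfactory median of 2.60 in all 4 arrays, so its fold is uncertain. The platelet genes Itga2b (0.51) and Pf4 (0.51) rose among 9 erythroid and platelet markers (22.2%, against 1.19% of all genes), and Epb42 (-0.31) did not pass. The mean level of these 9 was 6.18 and 6.27 in KO against 6.10 and 6.09 in WT.

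Of 15 naive CD8 T cell markers 0 passed limma and 4 had an unadjusted p under 0.05, against 16.6% of all genes. Both KO arrays lay below both WT arrays for 8 of the 15 and above for 3 (23.2% and 24.4% of all genes), and the list median was -0.14. Il7r (-0.35), Thy1 (-0.34) and Ccr7 (-0.27) had the smallest p, and the mean level was 9.56 and 9.63 in KO against 9.71 and 9.72 in WT. The part of other cell types in the differences of the 10 genes was not tested.

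The 5 genes with a profile over the 4 arrays most like the mean of the 10 were Mapkapk3, Ephx1, Cxcr4, Nnt and Ifi44l. Likeness was the smallest root mean square distance between deviations from the gene's own mean. The protein kinase gene Mapkapk3 was 0.0184 away, with 6.96 and 7.05 in the KO arrays, against 6.34 and 6.30 in the WT arrays. The epoxide hydrolase gene Ephx1 differed by 0.63 between genotypes, the chemokine receptor gene Cxcr4 by 0.63, the mitochondrial transhydrogenase gene Nnt by 0.62 and the interferon-induced Ifi44l by 0.64. The 10 genes themselves lay between 0.08 (Igsf6) and 0.23 (Ly86) from their mean profile, so all 10 were farther from it than the 5 alike genes, of which Ifi44l was farthest at 0.0265.

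**Figure D4:**
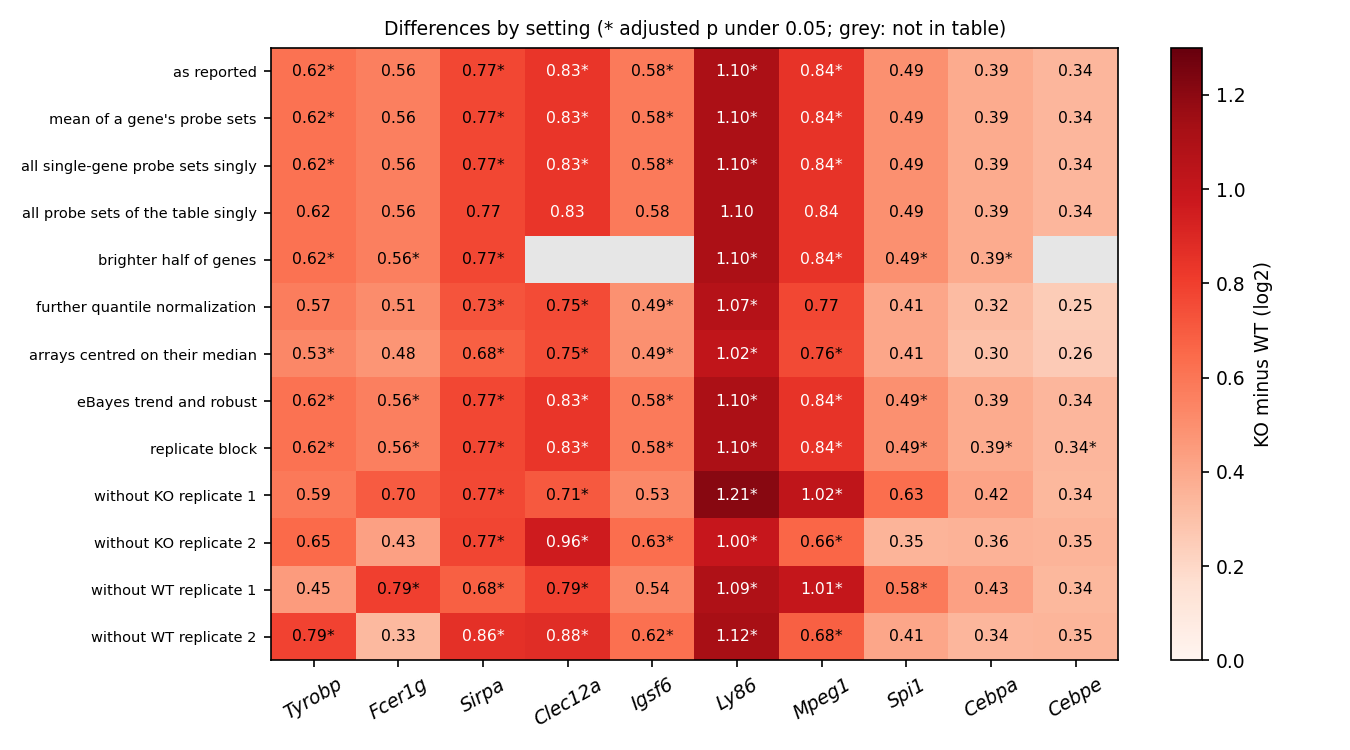
KO minus WT difference (log2) of each of the 10 genes, as reported and under 12 other settings, with an asterisk where the adjusted p was under 0.05 and grey where a gene was not in the table of that setting. All differences are above 0, the lowest being 0.25 for Cebpe after a further quantile normalization, and Ly86 lies between 1.00 and 1.21.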

How the data were processed

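The deposited table holds log2 values per probe set, made by the authors with RMA and Partek, per the submitters' processing notes (versions not given in the sources used here). RMA makes the distributions of arrays alike, so a shift of most genes one way would be removed, and it compresses folds of dim genes. Per the labels' protocols, 200 ng of RNA with an integrity number above 9 was labelled after random priming. Only 4 arrays limit the precision.

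Of 35556 probe sets, GEO's platform annotation paired 21789 with 1 symbol, 1621 with several and 12146 with none. Symbols were updated through gene identifiers to RefSeq names (GRCm38.p6), which matched 21698. R 4.3.3 and limma 3.58.1 served to compare KO with WT: lmFit, then eBayes with 8.06 prior degrees of freedom, with no term beside genotype. Tests were two-sided, and p-values were adjusted by Benjamini-Hochberg over 19938 genes (threshold 0.05). Errors are SD over 2 arrays or limma standard errors (SE). The fit was tested on simulated data.

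The members and lists were chosen with earlier results of these data known, and the promoter motifs after values were seen. Named were the 10 genes, Klf13, up to 6 called members of each list (or the 3 with the smallest p), and the 5 most alike profiles (unnamed clones, Gm, Rik, small RNA, immunoglobulin and olfactory symbols left out). Genes outside the rule, named after their values were seen, are Cd8a, Cd3e, Mettl9, F13a1, Hcst, Csf2ra, Cd68, Slc40a1, C1qa, C1qb, C1qc, Cpa3, Mcpt4, Tpsb2, Fcer1a, Ms4a2, Gata2 and Cd200r3. Alternatives were other uses of probe sets, the brighter genes, 2 further normalizations, a variance trend with robust moderation, a replicate block and each array left out.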

Additional observations from a re-analysis of the deposited data

How the results depend on the processing

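Under the 12 alternatives run, 0 of the 10 differences changed sign. The number of the 10 genes that passed was 0 with all 35556 probe sets tested singly, where 39 probe sets passed in all and the prior degrees of freedom were 2.89 against 8.06; this alternative was chosen after seeing the data. With an array left out, between 4 and 6 passed, and the lone array of its genotype was assumed to vary like the others. Over all genes 264 to 1536 then passed, and the median difference of the 10 lay between 0.63 and 0.67. That median was 0.54 after a further quantile normalization, where 4 passed without Tyrobp and Mpeg1, and 0.51 with arrays centred on their median, where 6 passed and 1088 genes were called in all. A variance trend with robust moderation called 831 genes and 8 of the 10, Fcer1g and Spi1 added. Among the 9969 brighter genes, which hold 7 of the 10 (not Clec12a, Igsf6 and Cebpe), all 7 passed. In that setting 606 of the 9969 (6.08%) were called, 264 of them higher in KO. Brightness was the mean over all 4 arrays, the KO arrays included.

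The replicate numbers pair nothing that the labels state, and across genes the correlation of the KO difference with the WT difference between replicates was 0.01. With the replicate block 10 of the 10 passed and 1187 genes were called in all. The prior degrees of freedom were infinite there, so every gene was given the same pooled spread and its own spread had no weight. Tyrobp passed in 7 of 12 alternatives and Igsf6 in 8 of 11, Ly86 in 11 of 12 and Sirpa in 11 of 12. The cause of these changes was not tested. With 2 arrays in each genotype, most of the precision of a test comes from the spread pooled over genes. The prior degrees of freedom were infinite without either WT array and 5.04 without either KO array. Adjusted p-values and calls of these fits therefore do not compare with each other.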
